A study of Caenorhabditis elegans with 6 samples.

Results

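This account covers 43 genes of the Argonaute family and the small RNA pathways of Caenorhabditis elegans. They are the 39 names of a list of Argonautes, RNA-dependent RNA polymerases, Dicer cofactors, mutator proteins and double-stranded RNA transporters, all of which had a row with counts, and 4 more genes whose name is wago- followed by a number. They were taken from 22416 genes with counts. RNA was measured by polyA-selected sequencing in 6 pools of whole CL2006 worms, a transgenic strain in which the unc-54 promoter, active in muscle, drives the human amyloid-β peptide in both groups. The nol-56 RNAi group is 3 pools fed, from the L4 larval stage, bacteria that make double-stranded RNA against nol-56, the gene of a nucleolar protein of the particles that modify ribosomal RNA. The EV control group is 3 pools kept on EV bacteria (by common usage the empty RNAi vector), called untreated in the labels. Both groups were on EV bacteria before that stage, were kept at 20 °C, were moved daily to remove progeny and were collected on day 6 of adulthood. The comparison asks how RNAi against the gene of a nucleolar protein alters transcripts, here those of small RNA machinery, part of which feeding RNAi itself uses. The protein was not measured here. No group was fed double-stranded RNA against another worm gene, so feeding RNAi as such and lowering nol-56 cannot be told apart.

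In C. elegans, Dicer cuts double-stranded RNA into primary small RNAs, which primary Argonautes carry to a target. RNA-dependent RNA polymerases then copy the target into secondary small RNAs, and worm-specific Argonautes (WAGOs) bind these and silence the target in the cytoplasm or the nucleus. PIWI proteins and piRNAs guard the germline genome, microRNA Argonautes regulate messenger RNAs in many tissues, and SID proteins let double-stranded RNA enter and spread between cells. Much of the secondary pathway is known for its work in the germline, where many of its proteins sit in germ granules.

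Total counts were 21138955 to 23901618 in the nol-56 RNAi libraries and 24109520 to 34841215 in the EV control libraries. The targeted gene had 518, 442 and 339 reads in nol-56 RNAi libraries, against 5878, 9029 and 8288 in EV controls. It fell 14.4-fold (log2 −3.85, SE 0.06, adjusted p = 1.18e-21), so it followed the labels in every library. CPM below are reads scaled to the TMM-adjusted library size, in parts per 1000000 reads, and TPM, used to compare levels between genes, are reads per exon length scaled to a sum of 1000000 in each library. Germline transcripts were lower in the same libraries: all 42 germline markers, among them htp-3, cgh-1, puf-8 and daz-1, fell, with a median log2 fold change of −0.97, and they held 1.012% to 1.052% of counts in nol-56 RNAi libraries, against 2.02% to 2.17% in EV controls. None of the 42 was at 0 in any library. The list of 42, like the other lists, was chosen with earlier results of these data known. Markers of body wall muscle (20 of 20 higher, with unc-27, mlc-3, unc-22 and mlc-2 at the smallest p), neurons (23 of 26 higher and 2 lower, with egl-3, egl-21, sbt-1 and ida-1 among the higher) and intestine (17 of 19 higher and 2 lower, with cpr-3, cpr-4, mtl-2 and cpr-6 at the smallest p) went the other way. In whole worms, fewer germ cells and less of a transcript per germ cell cannot be told apart.

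Most of the small RNA machinery was lower on nol-56 RNAi. Of the 42 members with enough reads to test, 38 fell, 2 rose and 2 did not pass the threshold (edgeR quasi-likelihood test, Benjamini-Hochberg adjusted p under 0.05 over 14677 genes); among all genes tested, 40.8% fell and 47.2% rose. The median log2 fold change of these 42 was −0.98, beside 0.16 over all genes tested and −0.97 for the germline markers. A fall of at least 2-fold was seen in 20 members, where 12.4% of all genes fell as far, and a rise of at least 2-fold in 1, where 24.8% rose as far. The member left out, wago-5, had 1, 1 and 2 reads in nol-56 RNAi libraries, against 5, 1 and 4 in EV controls. The CPM of the 2 groups did not overlap in any of the 42, as in 88% of all genes tested. In summed CPM the 43 members held 3937 to 3974 in nol-56 RNAi libraries, against 7748 to 8235 in EV controls. The germline markers summed to 9881 to 10111 CPM in nol-56 RNAi libraries, against 20566 to 22572 in EV controls. The scaling decided the calls of a few members: with upper-quartile factors, under which the median of all genes was 0.41, sid-3 and wago-10 were called higher and alg-1 and ergo-1 were no longer called.

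**Figure D1:**
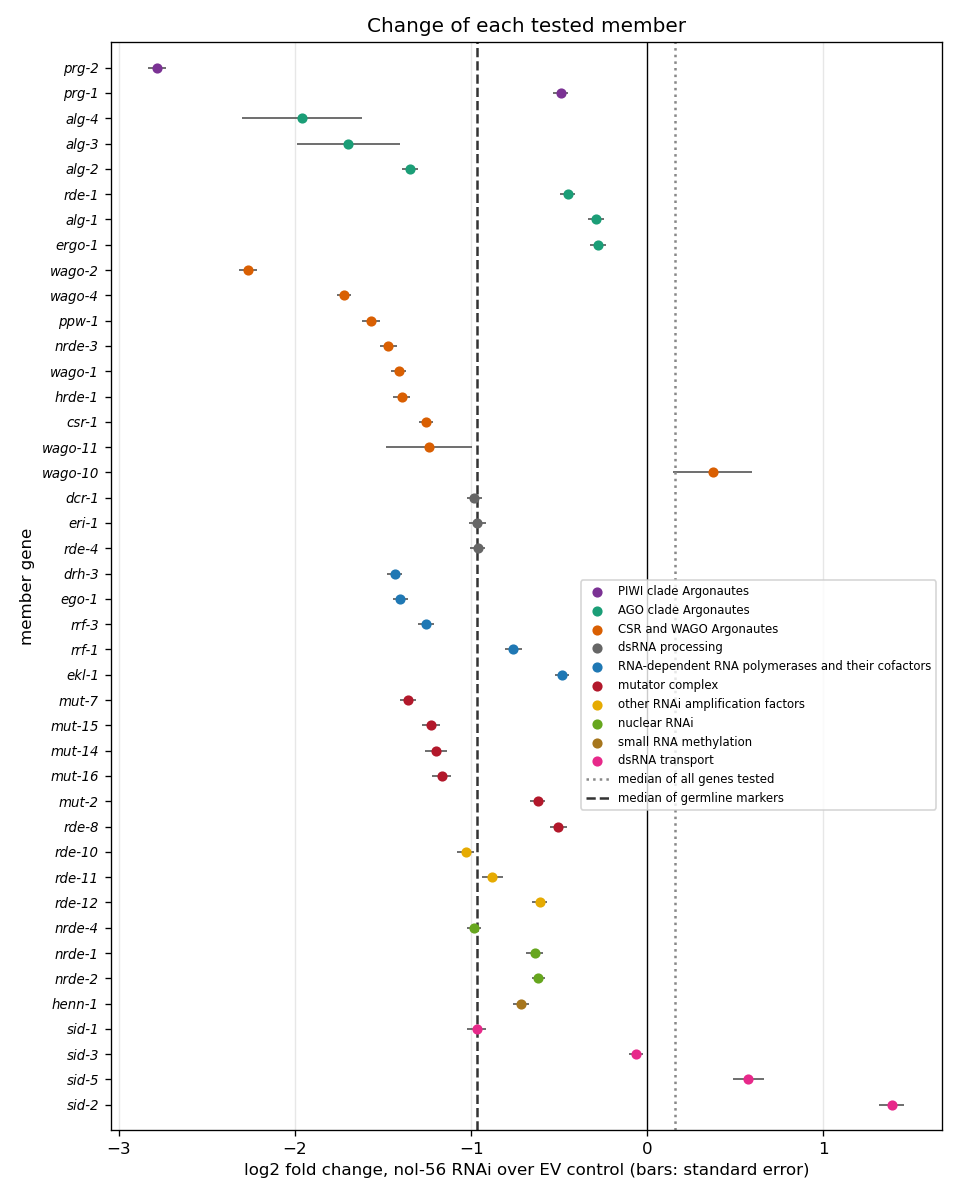
Log2 fold change of each of the 42 tested members, nol-56 RNAi over EV control, with its standard error as a bar and the members grouped by role; dashed and dotted lines mark the medians of the germline markers (−0.97) and of all genes tested (0.16). Of all points, only wago-10, sid-5 and sid-2 lie right of 0 and the prg-2 point, at −2.78, lies farthest left.

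The PIWI pair moved apart. PRG-1 is the Argonaute that binds piRNAs in the germline, and prg-2 is a close relative of prg-1 that the annotation used here lists as a pseudogene. prg-2 had 22.8, 23.5 and 24.5 CPM in nol-56 RNAi libraries, against 156, 168 and 163 CPM in EV controls. Its 3 nol-56 RNAi libraries lay close together and far under every EV control, a fall of 6.88-fold (log2 fold change −2.78, SE 0.05, adjusted p = 2.66e-21) that was the lowest log2 fold change among the members. prg-1 had 333, 324 and 308 CPM in nol-56 RNAi libraries, against 466, 457 and 434 CPM in EV controls. This was a far smaller fall, 1.41-fold (log2 −0.49, SE 0.04), less than the median fall of the germline markers. Within a library there were 14.6, 13.8 and 12.6 reads of prg-1 for each read of prg-2 in nol-56 RNAi, against 2.99, 2.72 and 2.67 in EV controls, a ratio that does not depend on scaling. The ratio differed 4.88-fold with no overlap (exact permutation test, two-sided, p = 0.1, the smallest that 3 against 3 libraries allow, and 0.133 after Benjamini-Hochberg adjustment over the 4 pairs compared). Reads of near-identical copies such as prg-1 and prg-2 may be assigned to either gene, so the level of prg-2 is uncertain.

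Argonautes of the AGO clade, which bind primary small RNAs, all fell (6 of 6, median log2 fold change −0.90), but by unequal amounts. ALG-1 and ALG-2 are the main microRNA Argonautes. alg-2 had 58.0, 54.96 and 51.9 CPM in nol-56 RNAi libraries, against 137, 145 and 138 CPM in EV controls. alg-1 had 98.7, 103 and 105 CPM in nol-56 RNAi libraries, against 133, 125 and 118 CPM in EV controls. Every nol-56 RNAi library was lower in both genes, by far more in alg-2: alg-2 fell 2.55-fold (log2 −1.35, SE 0.05) and alg-1 1.22-fold (log2 −0.29, SE 0.05; −0.04 and adjusted p = 0.351 with upper-quartile factors), so that there were 1.70, 1.88 and 2.03 alg-1 reads per alg-2 read in nol-56 RNAi libraries and 0.974, 0.862 and 0.853 in EV controls. That ratio rose 2.08-fold, with no overlap of the groups and an exact permutation p of 0.1 (0.133 adjusted). Per length, alg-1 stood at 23.8 ± 0.847 TPM in nol-56 RNAi libraries and 27.5 ± 1.75 TPM in EV controls (SD, n = 3 each). alg-2 stood at 20.7 ± 1.08 TPM in nol-56 RNAi libraries and 49.6 ± 1.10 TPM in EV controls (SD, n = 3 each), so that it was the higher of the pair in EV controls and the lower in nol-56 RNAi.

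ERGO-1, which binds primary small RNAs made in oocytes and embryos, and RDE-1, which binds those cut from double-stranded RNA taken up from outside, fell less than most Argonautes. ergo-1 had 389.6, 388 and 391.9 CPM in nol-56 RNAi libraries, against 506, 467 and 447 CPM in EV controls, a log2 fold change of −0.28 (SE 0.04; −0.03 and adjusted p = 0.476 with upper-quartile factors). rde-1 had 91.0, 90.7 and 97.5 CPM in nol-56 RNAi libraries, against 132, 124 and 125 CPM in EV controls, a log2 fold change of −0.45 (SE 0.04). In both genes the nol-56 RNAi libraries were lower by less than the germline marker median. The Argonautes of spermatogenesis, alg-3 and alg-4, were close to the detection limit: alg-3 had 13, 6 and 7 reads in nol-56 RNAi libraries, against 29, 41 and 35 in EV controls, and alg-4 had 6, 7 and 3 reads in nol-56 RNAi libraries, against 21, 33 and 24 in EV controls. They fell with log2 fold changes of −1.70 (SE 0.29) and −1.96 (SE 0.34), and their ratio to each other overlapped between the groups (exact permutation p = 0.6, also after adjustment). Sperm markers were near 0 as well. Their summed CPM over 26 genes was 19.04 to 21.7 in nol-56 RNAi libraries and 19.9 to 25.3 in EV controls. Of the 16 tested, 11 fell, with msp-57, msp-50, msp-55 and msp-49 at the smallest p. These 4 are from a family of near-identical genes whose reads may be split. The 4 that rose were spe-11 (log2 1.02), spe-41 (0.84), fer-1 (0.61) and ssp-10 (0.51). Of the list, fer-1 and spe-41 had the most reads. The genes msd-1 and msd-2 were at 0 in every library, and ssp-9 and ssp-19 were at 0 in every nol-56 RNAi library. The part of sperm cells in the alg-3 and alg-4 values was not tested.

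CSR-1 and the WAGOs bind secondary small RNAs. Of those among the members, 8 of the 9 tested were lower and none higher, with a median of −1.41. Outside the set, sago-1 and sago-2, which also bind secondary small RNAs, rose (log2 0.70 and 1.37), and the WAGO ppw-2 fell (−1.78). wago-1, a cytoplasmic Argonaute of germ granules, had 446, 442 and 422 CPM in nol-56 RNAi libraries, against 1161, 1180.2 and 1146 CPM in EV controls. It was the member with the highest TPM in both groups, 223 ± 5.96 TPM in nol-56 RNAi libraries and 559 ± 5.28 TPM in EV controls (SD, n = 3 each). hrde-1, the nuclear Argonaute of the germline that keeps silencing over generations, had 416, 410.1 and 401 CPM in nol-56 RNAi libraries, against 1153, 1057 and 1017 CPM in EV controls. wago-4, which carries inherited silencing in the cytoplasm of germ cells, had 80.1, 80.0 and 76.9 CPM in nol-56 RNAi libraries, against 269, 261 and 252 CPM in EV controls. In each of these 3 genes every nol-56 RNAi library lay more than 2-fold below every EV control library. The falls were 2.66-fold for wago-1 (log2 −1.41, SE 0.04), 2.63-fold for hrde-1 (log2 −1.39, SE 0.05) and 3.30-fold for wago-4 (log2 −1.72, SE 0.04).

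csr-1, whose protein binds small RNAs against genes that the germline expresses and which has an essential role in chromosome segregation, had 204, 199 and 196 CPM in nol-56 RNAi libraries, against 477, 480.1 and 472 CPM in EV controls and fell 2.39-fold (log2 −1.25, SE 0.04). Of its exon bases, 11.9% overlap frpr-10 on the same strand. The nuclear Argonaute of somatic cells, nrde-3, had 37.8, 39.6 and 42.4 CPM in nol-56 RNAi libraries, against 113, 108 and 110.2 CPM in EV controls. Its log2 fold change of −1.47 (SE 0.05) was no smaller a fall than that of its germline counterpart hrde-1. ppw-1, needed for feeding RNAi in the germline, had 27.1, 27.3 and 29.1 CPM in nol-56 RNAi libraries, against 81.1, 85.8 and 80.3 CPM in EV controls and fell 2.97-fold (log2 −1.57). Among genes that the annotation lists as pseudogenes, wago-2 had 21.5, 20.6 and 24.0 CPM in nol-56 RNAi libraries, against 103, 106 and 108 CPM in EV controls and fell 4.81-fold (log2 −2.27, SE 0.05), the lowest value after prg-2. wago-11, another pseudogene in the annotation, had 20, 18 and 11 reads in nol-56 RNAi libraries, against 44, 58 and 41 in EV controls and fell (log2 −1.24, SE 0.24). wago-10 had 27, 32 and 26 reads in nol-56 RNAi libraries, against 23, 33 and 25 in EV controls; its log2 fold change of 0.37 (SE 0.22) missed the threshold (adjusted p = 0.124), and passed it as higher with upper-quartile factors (0.62, adjusted p = 0.0142).

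**Figure D2:**
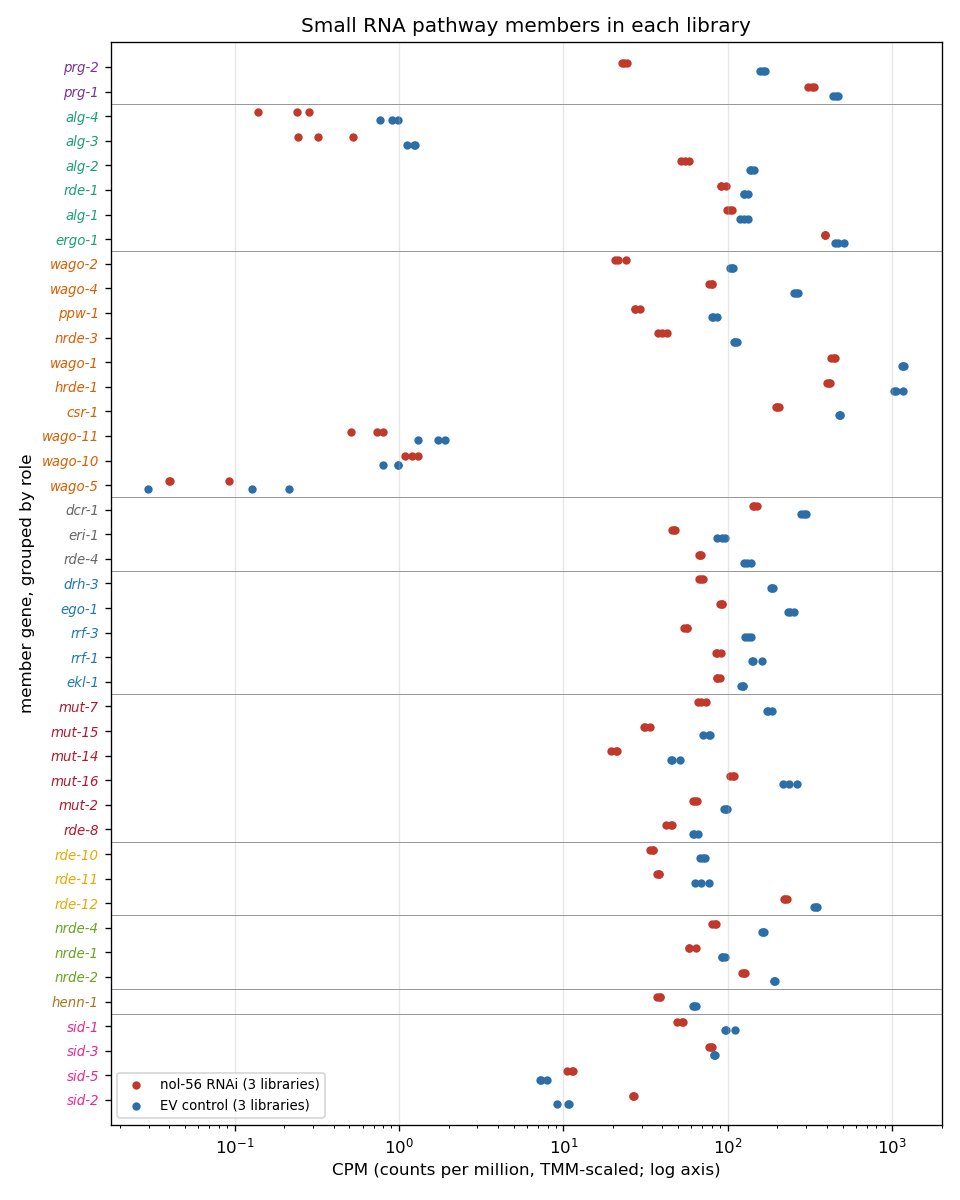
CPM of each of the 43 members in each library on a log axis, with 3 nol-56 RNAi libraries above 3 EV control libraries in each row and rows grouped by role. Except in sid-2, sid-5, wago-10 and wago-5, the nol-56 RNAi points lie left of the EV control points, and alg-3, alg-4, wago-5, wago-10 and wago-11 lie near or under 1 CPM.

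Argonautes outside the set changed in both directions. Beside the 18 Argonaute members, 5 further Argonautes had counts. ppw-2, a WAGO of the germline, had 58.5, 57.4 and 57.8 CPM in nol-56 RNAi libraries, against 219, 195 and 181 CPM in EV controls, a log2 fold change of −1.78. alg-5, a microRNA Argonaute of the germline, had 96.4, 95.5 and 95.4 CPM in nol-56 RNAi libraries, against 195, 178 and 169.9 CPM in EV controls, a log2 fold change of −0.92. Both fell, whereas the other three rose. vsra-1, listed in the deposited table as C04F12.1, had 517, 508 and 486 CPM in nol-56 RNAi libraries, against 277, 280.4 and 261 CPM in EV controls. sago-1 and sago-2 encode Argonautes of secondary small RNAs with roles in somatic RNAi. sago-1 had 132, 130.0 and 128 CPM in nol-56 RNAi libraries, against 83.0, 83.6 and 73.7 CPM in EV controls, and sago-2 had 15.3, 14.8 and 13.4 CPM in nol-56 RNAi libraries, against 5.60, 5.24 and 6.02 CPM in EV controls. Their log2 fold changes were 0.89 for vsra-1, 0.70 for sago-1 and 1.37 for sago-2, and no nol-56 RNAi library overlapped an EV control in any of the 3.

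These shifts changed the make-up of the Argonaute transcript pool, measured as each gene's share of the summed TPM of 23 Argonautes in a library. The pool itself was 1408 to 1450.1 TPM in nol-56 RNAi libraries, against 2378 to 2545 TPM in EV controls, a ratio of means of 0.582. CSR-1 and the WAGO members held 39.7% ± 0.0531 of the pool in nol-56 RNAi libraries, against 58.6% ± 0.387 in EV controls (mean ± SD in percentage points, n = 3 each, here and below). Within that class, wago-1 held 15.6% ± 0.217 of the pool in nol-56 RNAi libraries, against 22.8% ± 0.620 in EV controls, and hrde-1 held 12.6% ± 0.0122 of the pool in nol-56 RNAi libraries, against 18.2% ± 0.650 in EV controls. The AGO clade members held more of the smaller pool, 17.9% ± 0.454 of the pool in nol-56 RNAi libraries, against 13.3% ± 0.207 in EV controls. Of these, ergo-1 held 11.6% ± 0.249 of the pool in nol-56 RNAi libraries, against 7.75% ± 0.252 in EV controls. The 5 Argonautes outside the set held 28.2% ± 0.191 of the pool in nol-56 RNAi libraries, against 14.1% ± 0.372 in EV controls. Among them vsra-1 alone held 17.8% ± 0.242 of the pool in nol-56 RNAi libraries, against 5.29% ± 0.111 in EV controls, and it passed wago-1 as the most abundant Argonaute per length in nol-56 RNAi libraries. The WAGO ppw-2 held 1.94% in nol-56 RNAi libraries, against 3.64% in EV controls. For sago-1 the shares were 4.61% and 1.56%, and for sago-2 0.538% and 0.115%. The share of the CSR-1 and WAGO members is thus not that of all Argonautes of secondary small RNAs. The PIWI pair as a whole had a like share in both groups, 14.2% ± 0.245 of the pool in nol-56 RNAi libraries, against 14.01% ± 0.223 in EV controls. Within it prg-1 held 13.2% ± 0.299 of the pool in nol-56 RNAi libraries, against 10.2% ± 0.0630 in EV controls, while prg-2 held 1.02% ± 0.0541 of the pool in nol-56 RNAi libraries, against 3.85% ± 0.223 in EV controls. These shares are within a library and do not change with library scaling, and no test was made of them.

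**Figure D3:**
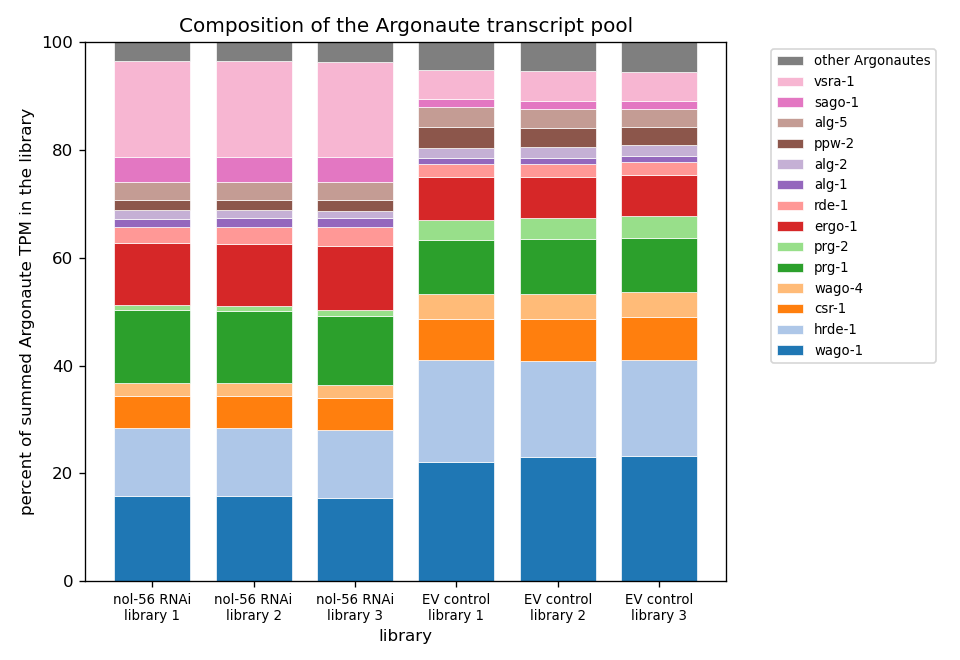
Share of the summed TPM of 23 Argonautes held by each in every library, as stacked percentages, with the 3 nol-56 RNAi libraries left of the 3 EV control libraries. The wago-1 and hrde-1 bands are narrower in nol-56 RNAi (means 15.6% and 12.6%) than in EV control (22.8% and 18.2%), and the vsra-1 band is wider (17.8% and 5.29%).

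The members grouped under double-stranded RNA processing, dcr-1, rde-4 and eri-1, all fell (3 of 3), by nearly equal amounts. dcr-1, the gene of Dicer, which also cuts microRNA precursors, had 149.7, 143 and 145 CPM in nol-56 RNAi libraries, against 299, 289 and 276 CPM in EV controls. rde-4, which encodes the double-stranded RNA binding partner of Dicer, had 67.5, 66.3 and 68.4 CPM in nol-56 RNAi libraries, against 137, 131 and 126 CPM in EV controls, and eri-1, an exonuclease gene whose loss enhances RNAi, had 47.5, 47.0 and 45.8 CPM in nol-56 RNAi libraries, against 96.5, 92.1 and 85.6 CPM in EV controls. Log2 fold changes were −0.98 for dcr-1 (SE 0.04), −0.96 for rde-4 (SE 0.04) and −0.96 for eri-1 (SE 0.05). Each of these falls was within its standard error of the germline marker median. Against the summed counts of those markers, the scale described further on, the 3 genes were called higher (log2 0.12 for dcr-1, 0.14 for rde-4 and 0.14 for eri-1), where the markers' own median was 0.13.

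All 5 RNA-dependent RNA polymerases and cofactors fell, with a median log2 fold change of −1.26. Of the polymerases, ego-1 and rrf-1 make secondary small RNAs and rrf-3 makes primary ones. ego-1, which acts in the germline, had 91.8, 89.8 and 92.4 CPM in nol-56 RNAi libraries, against 253, 238 and 233 CPM in EV controls. rrf-1, which acts in somatic cells and is also expressed in the germline, had 85.0, 85.9 and 90.5 CPM in nol-56 RNAi libraries, against 160.1, 141 and 142.4 CPM in EV controls. The fall of ego-1 was 2.64-fold (log2 −1.40, SE 0.04) and that of rrf-1 1.69-fold (log2 −0.76, SE 0.05), and the 2 genes lie 563 bases apart on the same strand of chromosome I. There were 1.08, 1.05 and 1.02 ego-1 reads per rrf-1 read in nol-56 RNAi libraries and 1.58, 1.69 and 1.64 in EV controls, with no overlap (exact permutation p = 0.1, 0.133 adjusted). rrf-3 had 56.05, 56.2 and 54.2 CPM in nol-56 RNAi libraries, against 139, 132 and 127 CPM in EV controls (log2 −1.26, SE 0.04). drh-3, the Dicer-related helicase that works with these polymerases, had 67.1, 68.5 and 70.4 CPM in nol-56 RNAi libraries, against 182, 189 and 186 CPM in EV controls and fell 2.70-fold (log2 −1.43, SE 0.04). The Tudor-domain cofactor gene ekl-1 had 89.5, 86.2 and 85.7 CPM in nol-56 RNAi libraries, against 119.4, 123 and 123 CPM in EV controls, the smallest fall of the group (log2 −0.48, SE 0.04). The polymerases and their helicase therefore fell by unequal amounts, with drh-3 and ego-1 lowest.

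**Figure D4:**
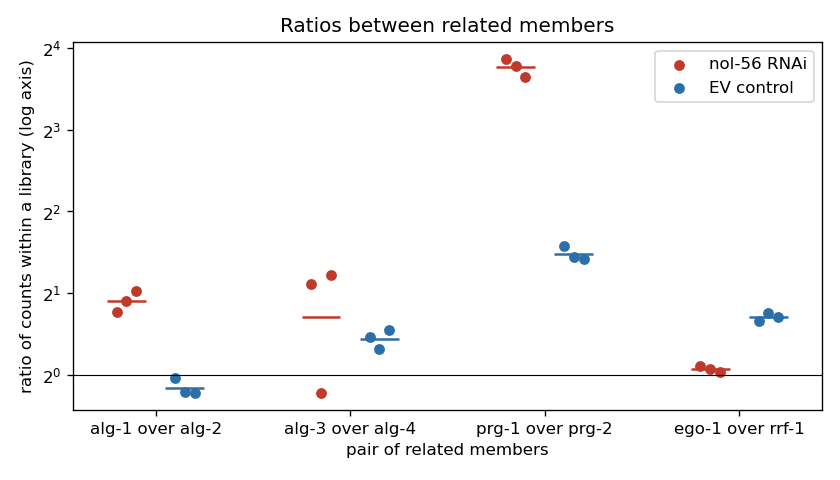
Ratio of read counts between 2 related members within each library on a log axis, with nol-56 RNAi left of EV control for each pair, points for libraries and lines for group means of the log2 ratio. The groups are apart for alg-1 over alg-2, prg-1 over prg-2 and ego-1 over rrf-1, and overlap for alg-3 over alg-4.

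Mutator proteins, which gather in perinuclear foci of germ cells where secondary small RNAs are made, all fell (6 of 6, median log2 fold change −1.18), in 2 ranges of size. mut-16, the scaffold of these foci, had 103, 107 and 109 CPM in nol-56 RNAi libraries, against 263, 235.0 and 218 CPM in EV controls, with the EV control libraries more spread than those of nol-56 RNAi. mut-7, an exonuclease gene, had 65.6, 69.1 and 73.5 CPM in nol-56 RNAi libraries, against 185, 173 and 176 CPM in EV controls. Both fell more than 2-fold (log2 −1.17, SE 0.05, and −1.36, SE 0.05), and so did mut-15 (log2 −1.23) and the DEAD-box helicase gene mut-14 (log2 −1.20). mut-2, which encodes a nucleotidyltransferase that tails targeted RNA, had 62.9, 61.3 and 64.5 CPM in nol-56 RNAi libraries, against 98.4, 97.6 and 94.6 CPM in EV controls. rde-8, an endonuclease gene, had 46.0, 44.9 and 42.2 CPM in nol-56 RNAi libraries, against 61.03, 62.4 and 65.6 CPM in EV controls. These 2 fell less, with log2 fold changes of −0.62 (SE 0.04) and −0.51 (SE 0.05), and neither group overlapped the other in any of the 6 genes. Of the other factors that help to amplify silencing, rde-12, a DEAD-box helicase gene, had 219, 223 and 228 CPM in nol-56 RNAi libraries, against 347, 345 and 332 CPM in EV controls (log2 −0.61, SE 0.04). rde-10 and rde-11, whose proteins act together on the targeted messenger RNA, had log2 fold changes of −1.03 (SE 0.05) and −0.88 (SE 0.06).

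Nuclear RNAi factors, which act with HRDE-1 and NRDE-3 to silence nascent transcripts, all fell (3 of 3, median log2 fold change −0.64), with values nearer to 0 than those of the 2 Argonautes; the difference was not tested. nrde-2 had 125, 126 and 122 CPM in nol-56 RNAi libraries, against 190.2, 193 and 191 CPM in EV controls. nrde-1 averaged 59.9 ± 3.21 CPM in nol-56 RNAi libraries and 93.4 ± 2.09 CPM in EV controls (SD, n = 3 each). nrde-4 averaged 82.8 ± 2.21 CPM in nol-56 RNAi libraries and 164 ± 2.15 CPM in EV controls (SD, n = 3 each). Log2 fold changes were −0.62 (SE 0.04) for nrde-2, −0.64 (SE 0.05) for nrde-1 and −0.99 (SE 0.04) for nrde-4, against −1.39 for hrde-1 and −1.47 for nrde-3. henn-1, which encodes the methyltransferase that protects the ends of piRNAs and of ERGO-1 small RNAs, had 38.6, 37.2 and 38.6 CPM in nol-56 RNAi libraries, against 62.2, 64.4 and 61.5 CPM in EV controls, a log2 fold change of −0.72 (SE 0.05).

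Transport genes were the role that held both rises, with 1 member lower and 1 past neither side of the threshold. SID-2 sits in the intestinal membrane and takes up double-stranded RNA from the gut, and sid-2 had 26.3, 26.4 and 26.98 CPM in nol-56 RNAi libraries, against 10.8, 10.7 and 9.12 CPM in EV controls. Its libraries lay more than 2-fold apart, a rise of 2.61-fold (log2 1.39, SE 0.07, adjusted p = 4.24e-14). sid-5, whose protein sits on endosomes and is needed for silencing to spread between cells, had 11.4, 11.2 and 10.6 CPM in nol-56 RNAi libraries, against 7.89, 7.33 and 7.20 CPM in EV controls, a rise of 1.49-fold (log2 0.57, SE 0.09, adjusted p = 2.12e-06). sid-1, the gene of the channel that imports double-stranded RNA into cells, went the other way, with 49.3, 52.7 and 53.0 CPM in nol-56 RNAi libraries, against 111, 96.9 and 95.9 CPM in EV controls and a log2 fold change of −0.97 (SE 0.05). The kinase gene sid-3 had 79.1, 77.2 and 80.5 CPM in nol-56 RNAi libraries, against 83.7, 81.8 and 82.1 CPM in EV controls. The sid-3 log2 fold change of −0.06 missed the threshold (adjusted p = 0.146). It was called lower with RLE factors (−0.20, adjusted p = 0.000317) and DESeq2 (−0.22, adjusted p = 8.88e-05). It was called higher with upper-quartile factors (0.18, adjusted p = 0.000224) and with genes above 5 CPM alone (0.08, adjusted p = 0.0442), and library totals gave 0.03 (adjusted p = 0.491). Intestine markers had a median log2 fold change of 0.94 and a summed CPM over 19 genes of 7360 to 7468 in nol-56 RNAi libraries, against 4434 to 4729 in EV controls, and none was at 0 in any library; their part in the sid-2 value was not tested.

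Because all 42 germline markers fell, each member was also set against them. Their summed counts took the place of the library size in the same fit. On this scale 15 members were lower, 22 were higher and 5 of the 42 did not pass the threshold; of all genes, 6.72% were lower and 85.2% higher. The 42 germline markers split the same way against their own sum, with 15 lower and 22 higher. The median of the members was 0.12, beside 0.13 for the germline markers themselves and 1.26 for all genes. Those below the germline scale were prg-2 (−1.68), wago-2 (−1.16), alg-4 (−0.87), wago-4 (−0.62), ppw-1 (−0.47), nrde-3 (−0.37), drh-3 (−0.33), wago-1 (−0.31), ego-1 (−0.30), hrde-1 (−0.29), mut-7 (−0.26), alg-2 (−0.25), rrf-3 (−0.15), csr-1 (−0.15) and mut-15 (−0.13), as log2 fold changes. wago-4 had 7.92, 7.98 and 7.78 reads per 1000 germline marker reads in nol-56 RNAi libraries, against 11.9, 12.2 and 12.3 in EV controls, with no overlap. Among those above it, prg-1 had 33.0, 32.3 and 31.1 reads per 1000 germline marker reads in nol-56 RNAi libraries, against 20.7, 21.3 and 21.1 in EV controls (log2 0.61), and ergo-1 had 38.5, 38.7 and 39.7 reads per 1000 germline marker reads in nol-56 RNAi libraries, against 22.4, 21.8 and 21.8 in EV controls (log2 0.83). The CSR-1 and WAGO members were called below the summed markers in 7 of 9 cases. Of these 7, wago-2 lay below every single marker, and the other 6 lay within the range of single markers, which reached −0.94 in htp-3 and −0.91 in cgh-1. The scale depends on the list: without its 3 markers with the most counts, 19 members were lower and 16 higher.

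**Figure D5:**
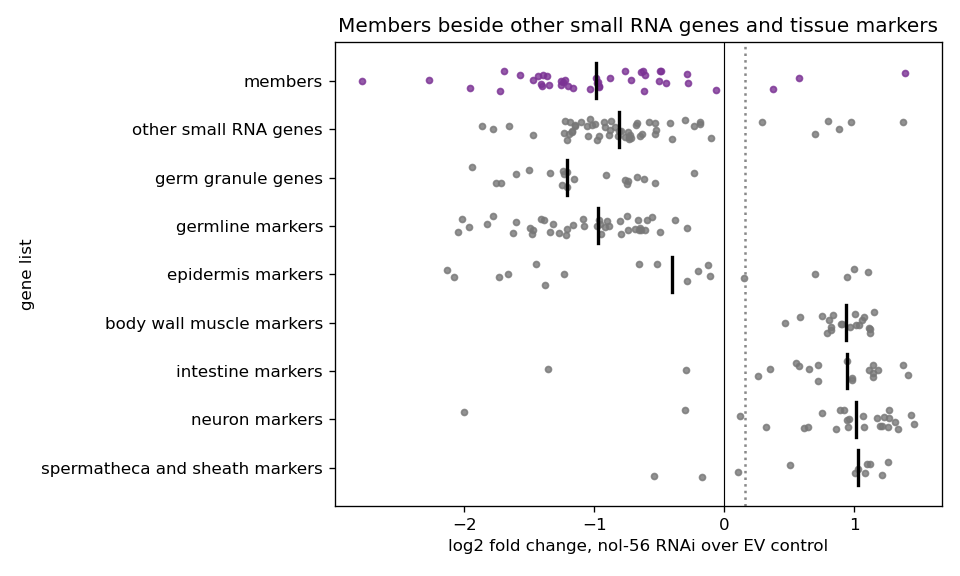
Log2 fold changes, nol-56 RNAi over EV control, of the tested members (purple) and of the other lists but the sperm markers (grey), with each list's median as a black bar, 0 as a solid line and the median of all genes tested (0.16) as a dotted line. The medians of the members (−0.98), germline markers (−0.97) and germ granule genes (−1.21) lie left of 0, and those for markers of muscle (0.93), intestine (0.94) and neurons (1.01) lie to the right.

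Germ granule genes beside them fell in 20 of 20 cases with a median of −1.21, with meg-3 (−1.94), glh-2 (−1.51), mip-1 (−1.72, listed as C38D4.4) and pgl-3 (−1.60) at the smallest p. Of this list, deps-1, hrde-2, rsd-6, simr-1 and znfx-1 are also counted among the small RNA genes outside the members, given further on. Markers of the spermatheca and gonad sheath, somatic cells that enclose the germline, were higher in 8 of 11 cases and lower in 2 (median 1.03). Those higher included itr-1 (1.10) and tnt-3 (1.03), and the 2 lower were fln-1 (−0.54) and inx-9 (−0.17). One of the higher genes, unc-27, is also in the body wall muscle list. Of 18 epidermis markers, 10 fell and 4 rose (median −0.40), with noah-2 (−1.66) lower and vha-5 (0.94) higher.

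In the genome (WBcel235), 40 members are annotated as protein coding and 3 as pseudogenes. Chromosome I holds 11, III 8, IV and V 7 each, II 6 and X 4; the X chromosome has 9.30% of the members and 13.7% of the protein-coding genes counted. A stretch of 731 kb on chromosome I (7095486 to 7826378), picked out after its positions were seen, contains ekl-1, wago-1, prg-1, rrf-1, ego-1 and drh-3 among 167 counted genes. Those 6 genes differed in their response, with log2 fold changes between −1.43 and −0.48. The 4 on X are alg-1 (13949110 to 13956261), nrde-3 (372235 to 376900), sid-3 (17186380 to 17193292) and sid-5 (6904721 to 6905849), and they include sid-3, with the smallest change among the members, and a rise in sid-5, as well as the 2.77-fold fall of nrde-3. prg-2 lies on chromosome IV (6526962 to 6529802), wago-4 on II (12919551 to 12923377), hrde-1 on III (4172337 to 4176159) and sid-2 on III (13679445 to 13682450). Exon bases of 10 members overlap another counted gene, at most 11.9% of them, in csr-1.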

How the data were processed

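RNA was measured in 3 nol-56 RNAi and 3 EV control pools of whole worms, grouped by the sample labels. The counts are whole-number reads per gene and library as deposited by the authors, with no normalization. The authors also deposited a normalized signal, the count divided by 1 factor per library, used here only to check those factors. Without role or order, the submitters' processing notes list the build WBcel235 and the tools DESeq2 1.36.0, HTSeq 2.01, TopHat2 2.1.1 and cutadapt 2.10. The kit marks strand per the labels' protocols. Whether counting used strand was not stated in the sources used here, so reads of overlapping genes may not be told apart.

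Genes were filtered with filterByExpr defaults (minimum count 10, minimum total count 15), scaled with TMM factors and tested with edgeR 4.0.16 in R 4.3.3 (quasi-likelihood test, group as the only term, two-sided, Benjamini-Hochberg adjustment over 14677 genes, threshold 0.05), a procedure also tested on simulated data. Log2 fold changes set nol-56 RNAi over EV, and each SE is the absolute log2 fold change divided by the square root of its F statistic. TPM used the summed exon length of each gene in the Ensembl 115 annotation of WBcel235. A second scaling took the summed counts of 42 germline markers as library size. Ratios of 4 related pairs were compared with exact permutation tests. Total counts of 21138955 to 34841215 give small counting error except for genes with few reads. No pair of libraries within a group agreed within sampling noise. The labels do not say whether the pools were separate cultures. A p-value here therefore measures only the spread between these pools, which can be technical. The members, roles, pairs and lists were chosen with earlier results of these data known. Members were named by role: those with the largest fall or rise, the most counts in their role, or a call higher, with others by values or counts, and up to 4 genes per list by smallest p. Also named were the spermatheca and sheath markers that fell, the sperm markers that rose and vha-5 of the epidermis list. Alternatives were other scalings (RLE, upper quartile, library totals), filters, a replicate block, leaving out each library, leaving out the 20 most counted genes, DESeq2 1.42.0 and limma-voom (limma 3.58.1), glmTreat against a fold of 1.5, and a fold of at least 2.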

Additional observations from a re-analysis of the deposited data

How the results depend on the processing

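The median log2 fold change of members was −0.98. It was −1.12 with RLE factors, −0.74 with upper-quartile factors, −0.89 with library totals, −0.83 for genes above 5 CPM in at least 3 libraries and −1.14 with DESeq2, and it ran from −1.02 to −0.98 when 1 library was left out. These scalings also move the median of all genes. Members called lower numbered 38 (35 to 39 with other scalings, filters, tools or left-out libraries), 28 with glmTreat against a fold of 1.5, and 20 when a fold of at least 2 was also asked. Members called higher numbered 2, with 4 under upper-quartile factors, and 1 with glmTreat against a fold of 1.5 or with a fold of at least 2. For genes above 5 CPM, sid-3 was called higher in addition to sid-2 and sid-5. The log2 fold change of sid-3 was above 0 with upper-quartile factors (0.18), library totals (0.029) and genes above 5 CPM (0.082), and below 0 with TMM factors (−0.06). Without any 1 library the calls stayed at 38 lower and 2 higher. Replicate numbers did not pair the libraries: deviations of libraries with the same number correlated at −0.04, −0.01 and 0.00. With the replicate block, 38 members were lower and 2 higher, with a median of −0.98, and the germline scaling gave 15 lower and 22 higher. The germline scaling gave 13 to 19 lower and 16 to 23 higher members over its alternatives. For paralog ratios: alg-3 over alg-4 differed by 0.26 on the log2 scale, and it was 0.73 without nol-56 RNAi replicate 2 and 0.00550 without nol-56 RNAi replicate 3. Read depth limits alg-3, alg-4, wago-5, wago-10 and wago-11. The causes of these changes were not tested.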

Other observations

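Small RNA genes outside the 43 members fell for the most part too. Of 61 names written for that list, 57 could be matched by name to a gene with counts, and all 57 were tested. Of these, 51 were lower on nol-56 RNAi and 6 higher, with a median log2 fold change of −0.81 beside 0.16 over all genes. Those with the smallest p after ppw-2 were vig-1, rha-1 and snpc-4. vig-1, named for a protein found with the microRNA silencing complex, had 729, 756 and 798 CPM in nol-56 RNAi libraries, against 2124, 2140.4 and 2051 CPM in EV controls (log2 −1.47). rha-1, an RNA helicase gene, had 116, 115.3 and 108 CPM in nol-56 RNAi libraries, against 268, 266 and 262 CPM in EV controls (log2 −1.23). snpc-4, needed for transcription of piRNA genes, had 97.5, 94.1 and 93.1 CPM in nol-56 RNAi libraries, against 219, 218 and 212 CPM in EV controls (log2 −1.19). Every nol-56 RNAi library of these 3 genes lay more than 2-fold below every EV control library.

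The following genes were picked after their values were seen. Beside vsra-1, sago-1 and sago-2, the genes that rose were drh-2, rrf-2 and rsd-3. drh-2 is a relative of the helicase genes drh-1 and drh-3, and it had 97.3, 101 and 99.5 CPM in nol-56 RNAi libraries, against 50.8, 52.7 and 48.1 CPM in EV controls (log2 0.97, SE 0.05). drh-1, which acts in antiviral RNAi, had 59.8, 55.7 and 57.2 CPM in nol-56 RNAi libraries, against 112, 109 and 108 CPM in EV controls (log2 −0.93, SE 0.04), so that of the 3 related helicase genes 2 fell and 1 rose. rrf-2, a relative of the RNA-dependent RNA polymerase genes rrf-1 and ego-1, had 130.0, 129.6 and 131 CPM in nol-56 RNAi libraries, against 77.3, 75.2 and 72.2 CPM in EV controls (log2 0.80, SE 0.04). rsd-3, needed for RNAi to spread, had 71.0, 77.2 and 72.4 CPM in nol-56 RNAi libraries, against 60.1, 61.8 and 58.9 CPM in EV controls (log2 0.29, SE 0.05). Genes of microRNA biogenesis fell, with log2 fold changes of −0.99 for drsh-1 (Drosha) and −0.89 for pash-1 (its partner), while ain-1 and ain-2, whose proteins bind the microRNA Argonautes, changed less (−0.19 and −0.40). The adenosine deaminase genes of double-stranded RNA, adr-1 and adr-2, had log2 fold changes of −1.23 and −0.68.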
